A study of Mus musculus with 12 samples.

Results

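The 8 genes described here encode the subunits of the hypoxia-inducible factors (HIF) and the enzymes that make them sensitive to oxygen. They were chosen by gene symbol, with no measured value in the rule: Hif1a, Epas1 and Arnt for the subunits, Egln1, Egln2 and Egln3 for the prolyl hydroxylases, Hif1an for the asparaginyl hydroxylase and Vhl for the ubiquitin ligase component. The choice was not blind, because earlier results of these data were known when it was made. They are 8 of 32498 named gene rows, and all 8 passed the filter on low values that 16847 rows passed. RNA came from the tongues of C57BL/6 mice, labelled as tumor and tumor-associated tissue, in 6 vehicle and 6 gallic acid (GA) libraries. Every mouse had drunk the oral carcinogen 4-nitroquinoline 1-oxide (4NQO) at 100 µg/mL for 16 weeks. From week 4 on, GA at 100 mg/kg or the same volume of vehicle was given by gavage 5 times per week up to sacrifice. The age at sacrifice is not given in the sources used here, and tongues without 4NQO were not analysed here, so the comparison is of GA with vehicle within carcinogen-exposed tissue. The labels do not say whether each library is 1 mouse, and p-values measure the spread between these libraries.

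HIF is a transcription factor made of an oxygen-labile alpha subunit and a stable partner, ARNT. In oxygenated cells the prolyl hydroxylases PHD2 (Egln1), PHD1 (Egln2) and PHD3 (Egln3) modify the alpha subunits, VHL then binds them, and they are degraded, while FIH (Hif1an) blocks their binding to coactivators. Regulation of HIF-alpha is largely at the protein, which RNA-seq does not measure. HIF-1alpha is found in most cell types, HIF-2alpha (Epas1) is prominent in endothelium, and in squamous epithelium and its tumors the pathway is known for glycolytic and angiogenic target genes.

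The libraries held an estimated 18039779 to 25190018 reads, fitted from the FPKM values (fragments scaled to exon length and library size). The median of these estimates was 2.11e+07 with vehicle and 2.37e+07 with GA. Between libraries of a group, Spearman's rho over genes ran from 0.888 to 0.971. Vehicle 1 to 4 and GA 1 carried Y-linked reads and the other 7 libraries did not, and Lipf, a lipase of the serous glands of the tongue, was above 100 FPKM in vehicle 3, vehicle 5 and GA 2. Markers of differentiated tongue epithelium were abundant in every library, summing to 18274 to 49208 FPKM with vehicle and 15244 to 29006 FPKM with GA, and skeletal muscle markers summed to 1618 to 13661 FPKM and 2337 to 10340 FPKM. All libraries therefore held several tissues, and in bulk RNA fewer cells of a type and less RNA per cell cannot be told apart.

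The most abundant of the 8 transcripts per length were the alpha subunit Hif1a and 2 prolyl hydroxylases, and the least abundant were the shared partner Arnt and the ligase component Vhl. An order of different genes by FPKM also depends on the exon lengths used, whose annotation is not given in the sources used here. Over the 12 libraries, the level was 65.4 ± 32.1 scaled FPKM for Hif1a, 60.1 ± 16.4 for Egln3, 48.1 ± 12.7 for Egln1, 22.3 ± 4.85 for Epas1, 22.2 ± 3.33 for Egln2, 14.3 ± 3.02 for Hif1an, 7.87 ± 1.05 for Arnt and 6.35 ± 1.14 for Vhl (mean ± SD, n = 12). Neighbours in this order were compared within each library by an exact two-sided sign-flip permutation test, adjusted over the 7 pairs. Egln1 was above Epas1, Egln2 above Hif1an, and Hif1an above Arnt in 12 of 12 libraries each (adjusted exact p = 0.00114, from the smallest p that the test can give). Arnt was above Vhl in 10 of 12 libraries (mean log2 difference 0.32, adjusted exact p = 0.00427), and over the 7 libraries without Y-linked reads the mean log2 difference was 0.26 (exact p = 0.0625). Of the 7 pairs, 3 could not be separated beyond their spread: Hif1a and Egln3 (Hif1a higher in 7 of 12, mean log2 difference -0.02, SD 0.97), Egln3 and Egln1 (8 of 12, 0.32, SD 0.48, adjusted exact p = 0.0636) and Epas1 and Egln2 (8 of 12, -0.02, SD 0.30).

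**Figure D1:**
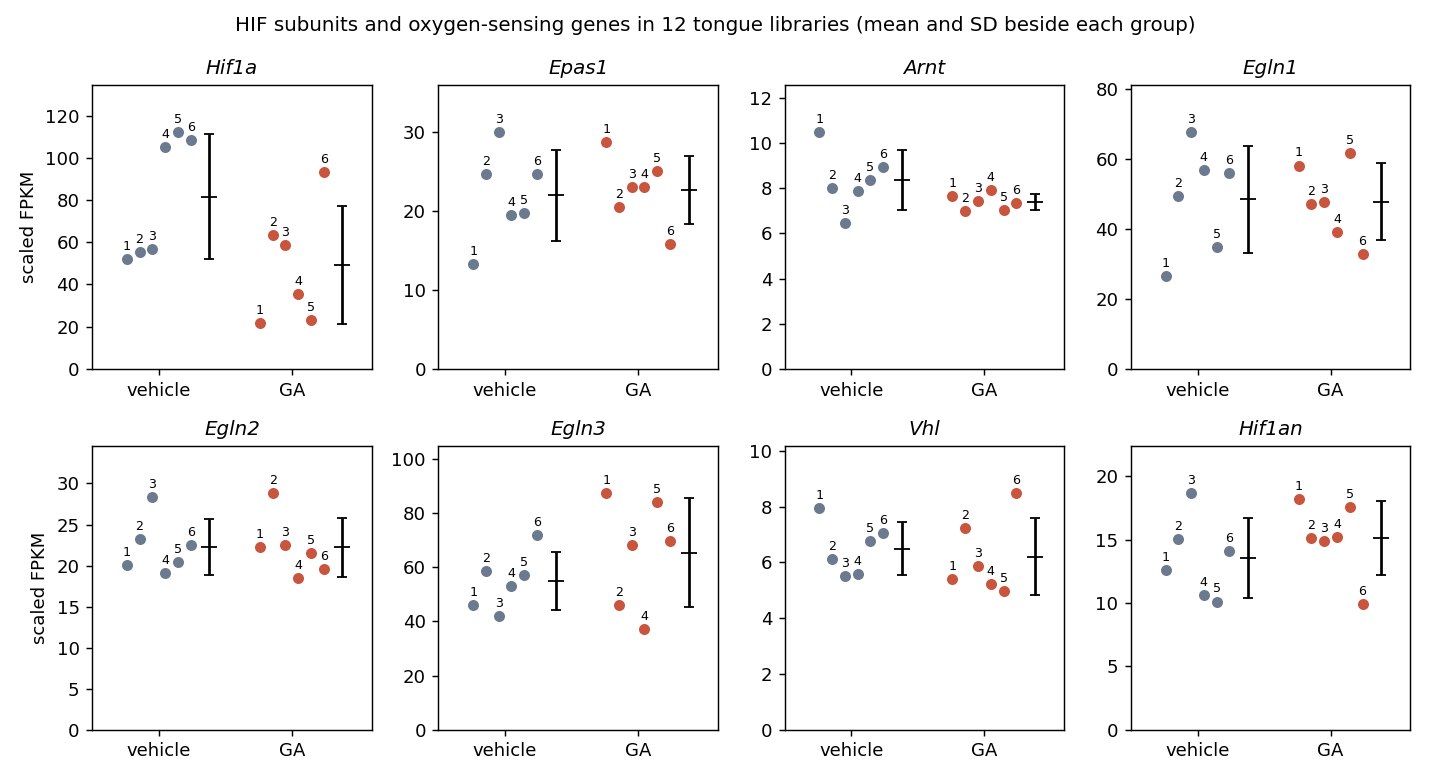
Level of each of the 8 genes (vertical axis, scaled FPKM from 0) in the 6 vehicle and 6 GA libraries; points are libraries with their replicate number, and the bar beside each group is its mean and SD. Hif1a spans 21.6 to 112 scaled FPKM, Arnt only 6.45 to 10.5, and the ranges of both groups overlap for every gene.

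The 250 bases before 3 of the transcription starts are shown with matches to the HIF core motif, ACGTG or GCGTG, which was searched on both strands. The sequences are from RefSeq on GRCm38.p6, 5′ to 3′ on the strand of the gene, with motif matches in capitals. The Hif1a window, on the plus strand at chr12:73907617-73907866, lies inside the gene span of GENCODE M21 and of the antisense gene Gm15283 but in no exon of either. The Egln3 window (minus strand, chr12:54203875-54204124) and the upstream of 2 Egln2 windows (minus strand, chr7:27166803-27167052) lie in no annotated gene.
Hif1a: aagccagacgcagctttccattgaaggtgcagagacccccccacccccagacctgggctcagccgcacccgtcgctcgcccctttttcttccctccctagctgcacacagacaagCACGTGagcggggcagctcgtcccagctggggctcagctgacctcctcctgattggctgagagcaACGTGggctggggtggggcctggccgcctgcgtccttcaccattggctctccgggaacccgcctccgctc
Egln3: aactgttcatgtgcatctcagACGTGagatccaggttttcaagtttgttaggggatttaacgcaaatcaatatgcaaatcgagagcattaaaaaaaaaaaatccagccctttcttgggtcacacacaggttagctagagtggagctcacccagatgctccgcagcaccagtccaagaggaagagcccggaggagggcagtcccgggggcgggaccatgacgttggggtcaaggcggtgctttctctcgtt
Egln2: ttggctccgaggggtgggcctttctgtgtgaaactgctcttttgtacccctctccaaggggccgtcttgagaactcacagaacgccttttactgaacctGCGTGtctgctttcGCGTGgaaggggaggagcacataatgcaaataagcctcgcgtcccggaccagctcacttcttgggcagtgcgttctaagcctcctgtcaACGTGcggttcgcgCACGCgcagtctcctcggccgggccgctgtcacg
Hif1a held 3 matches, of which 2 are the same CACGTG read on either strand, Egln3 held 1, and Egln2 held 4, the last of them on the other strand. Arnt had 1 and Egln1 had 2, whereas Vhl and Hif1an had none, and Epas1 has no entry in the table. The motif is short and common: 41.5% of the 27025 gene symbols of the table held it in at least 1 promoter (38.6% of the 32851 promoters), against 5 of the 7 members with an entry, so a match is only a description of the letters.

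Of the alpha subunits, Hif1a was lower in GA libraries by its mean and Epas1 was not, but neither passed the test across all genes. Hif1a was at 52.0, 55.3, 57.0, 105, 112 and 108 scaled FPKM in vehicle 1 to 6, and at 21.6, 63.2, 58.8, 35.5, 22.9 and 93.0 in GA 1 to 6. The vehicle libraries fell into a low and a high set of 3, and 3 GA libraries (1, 4 and 5) lay below every vehicle library, while GA 2 and GA 3 lay just above the low vehicle set and GA 6 near the high one. The vehicle mean was 81.6 ± 29.5 and the GA mean 49.2 ± 27.8 (SD over 6 libraries). The log2 difference was -0.85 (SE 0.37, 95% interval -1.65 to -0.04), and 5 GA libraries lay under the median of the vehicle libraries. The limma p was 0.0411 before adjustment and 0.999984 after Benjamini-Hochberg adjustment over 16847 genes, and the exact two-sided permutation p was 0.0823, where 0.00216 is the smallest that 6 against 6 allows. Hif1a varied more within groups than most genes, with an SD of 0.71 on the log2 scale, at percentile 85.5 of the genes that averaged 1 FPKM or more.

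A gene was called if its adjusted p was below 0.1 and its log2 difference was 0.58 or more in either direction. It was passed by 0 of the 8 genes and by 0% of all 16847 genes in limma, and by 0 genes also in limma-voom on the recovered reads. At an unadjusted p below 0.05, limma gave 364 genes (2.16%; 1.12% higher and 1.04% lower with GA) and limma-voom 331. Hif1a was the 1 gene of the 8 below that p, and also the 1 that passed an unadjusted p below 0.1 with the same fold limit, as 1.95% of all genes did. The ranges of the groups did not overlap for 0.0653% of all genes and for 0 of the 8. Its unadjusted p stayed below 0.05 in 6 of the 12 fits that left out 1 library, with a range of 0.00912 without GA 6 to 0.0964 without GA 1, and was above 0.05 without vehicle 4, 5 or 6 or GA 1, 4 or 5. Of the exon bases of Hif1a, 8.11% overlap other genes: 5.60% the antisense Gm15283 and 2.51% the protein-coding Gm49321 on the same strand. Whether the authors counted by strand is not given in the sources used here. The 7 libraries without Y-linked reads were vehicle 5 and 6 and GA 2 to 6. Over these, the log2 difference of Hif1a was -1.17 (95% interval -2.31 to -0.02, adjusted p = 0.999 by limma). With presence of Y-linked reads as a term the difference was -1.31 (95% interval -2.10 to -0.52, adjusted p = 0.996 by limma). GA 1 was the only GA library with Y-linked reads, so the libraries with them gave no spread for GA.

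Epas1 was at 13.3, 24.6, 29.9, 19.5, 19.7 and 24.6 scaled FPKM in vehicle 1 to 6 and at 28.7, 20.5, 23.0, 23.0, 25.0 and 15.8 in GA 1 to 6. The lowest library was vehicle 1 and the highest vehicle 3, so the GA range lay wholly inside the vehicle range. The log2 difference was 0.07 (95% interval -0.34 to 0.48, exact permutation p = 0.773), an interval that leaves room for a change of about 1.39-fold up or to 0.788 of the vehicle level. Arnt, the partner of both, ran from 6.45 to 10.5 (median 8.18) with vehicle and from 7.003 to 7.92 (median 7.38) with GA. All 6 GA libraries lay below the vehicle median, and the ranges still overlapped through vehicle 3 at 6.45 and vehicle 4 at 7.87. The log2 difference of Arnt was -0.16 (95% interval -0.39 to 0.07, exact permutation p = 0.136), and its SD within groups, 0.17 on the log2 scale, was at percentile 13.1.

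**Figure D2:**
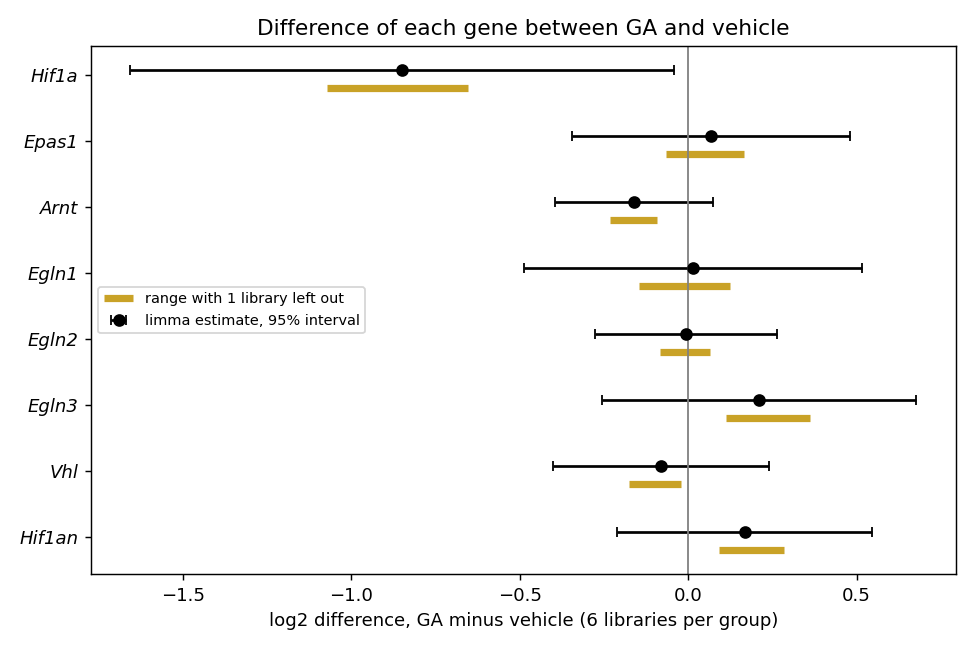
Log2 difference between GA and vehicle (horizontal axis) for each of the 8 genes (6 libraries per group). Points and black bars are the limma estimate with its 95% interval, and the ochre bars span the estimates with 1 library left out; the interval of Hif1a, -1.65 to -0.04, is the only one that does not reach 0, before adjustment.

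The balance of the alpha subunits varied from library to library. The ratio of Hif1a to Epas1 FPKM was 3.91, 2.24, 1.90, 5.39, 5.69 and 4.40 in vehicle 1 to 6, and 0.754, 3.09, 2.56, 1.55, 0.916 and 5.87 in GA 1 to 6. Epas1 exceeded Hif1a in GA 1 and GA 5 and in no vehicle library, but the highest ratio was also in a GA library, GA 6. The mean log2 ratio was 1.85 ± 0.66 for vehicle against 0.94 ± 1.12 for GA (SD over 6 libraries), a difference of -0.92 (exact permutation p = 0.119). Without GA 6 the difference was -1.24 (exact permutation p = 0.0325), the 1 alternative that strengthened it, while 21 left it the same. Summed FPKM of both subunits was 104 ± 29.6 with vehicle and 71.9 ± 23.8 with GA (exact permutation p = 0.0714). For this sum, 19 alternatives left the result the same and 3 strengthened it. In those 3 the exact permutation p was 0.0303 without vehicle 1, 0.0346 without GA 6 and 0.0476 over the libraries without Y-linked reads. The last compares only vehicle 5 and vehicle 6 with GA 2 to GA 6, and is the smallest p possible there. Epas1 made up 22.5% ± 8.21 of the summed FPKM with vehicle and 35.9% ± 16.5 with GA (exact permutation p = 0.1104). Leaving out GA 6 (exact permutation p = 0.0325) was the 1 alternative that strengthened the difference in this share, while 21 left it the same. Arnt RNA stood at 6.32% to 16.1% of the summed alpha FPKM over all 12 libraries, so it was below the alpha subunits throughout.

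**Figure D3:**
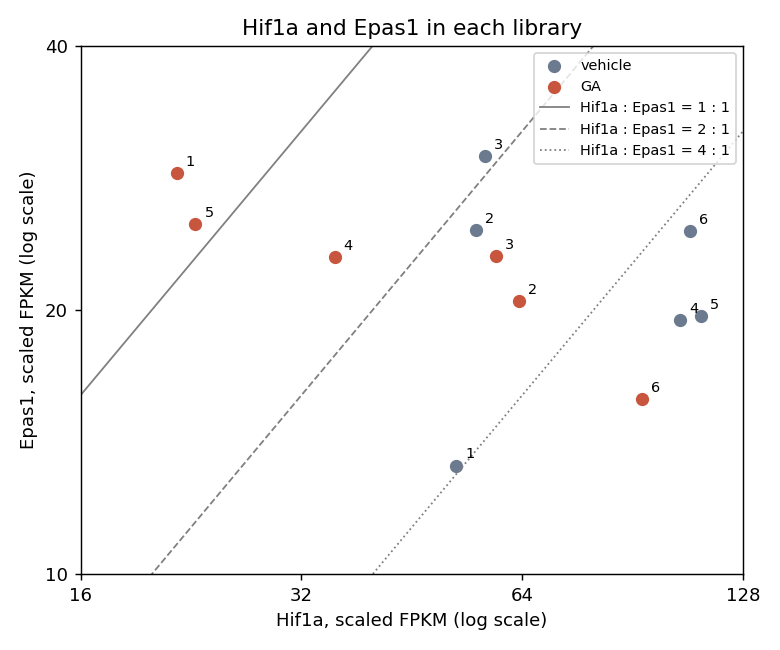
Hif1a (horizontal axis) against Epas1 (vertical axis) in scaled FPKM, both on log scales; points are libraries with their replicate number, and lines mark ratios of 1, 2 and 4. GA 1 and GA 5 lie above the line of equal levels, and vehicle 4, 5 and 6 and GA 6 lie beyond the ratio of 4.

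No difference between the groups in the prolyl hydroxylases passed a test, and the intervals below give the changes that remain possible. Egln1, the main oxygen sensor of most cells, ran from 26.4 to 67.6 scaled FPKM (median 52.6) with vehicle and from 32.8 to 61.7 (median 47.4) with GA. The lowest library was vehicle 1 and the highest vehicle 3, as for Epas1. The log2 difference was 0.01 (95% interval -0.49 to 0.51, exact permutation p = 0.952). Egln2 ran from 19.1 to 28.4 (median 21.4) with vehicle and from 18.5 to 28.8 (median 21.9) with GA. Its highest libraries were vehicle 3 and GA 2, both with high Lipf, while vehicle 5, the third such library, was at 20.4. The log2 difference was -0.01 (95% interval -0.28 to 0.26, exact permutation p = 0.957). Egln3, itself a known HIF target, ran from 41.9 to 72.1 (median 55.2) with vehicle and from 37.1 to 87.5 (median 69.0) with GA. GA 1 and GA 5, the libraries lowest in Hif1a, were the highest in Egln3 at 87.5 and 84.2, and GA 4 was the lowest. The log2 difference of Egln3 was 0.21 (95% interval -0.26 to 0.68, exact permutation p = 0.374), and it was -0.14 over the libraries without Y-linked reads.

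Summed over the family, prolyl hydroxylase RNA was 126 ± 20.4 FPKM with vehicle and 135 ± 28.6 FPKM with GA (exact permutation p = 0.489). Egln3 held the largest mean share, 44.1% ± 7.61 with vehicle and 47.6% ± 7.61 with GA (exact permutation p = 0.452), Egln1 37.9% ± 7.72 and 35.5% ± 4.94 (exact permutation p = 0.532), and Egln2 18.0% ± 2.82 and 16.9% ± 4.07 (exact permutation p = 0.613). Within single libraries Egln1 exceeded Egln3 in 4 of 12, vehicle 3 and 4 and GA 2 and 4.

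Hif1an and Vhl, which act on the alpha subunits after or beside prolyl hydroxylation, gave no difference past the test either. Hif1an ran from 10.1 to 18.7 scaled FPKM (median 13.4) with vehicle and from 9.94 to 18.2 (median 15.2) with GA. Of the GA libraries 5 of 6 lay above the vehicle median, and GA 6 was the lowest of all 12. The log2 difference was 0.17 (95% interval -0.21 to 0.55, exact permutation p = 0.387). Vhl ran from 5.50 to 7.96 (median 6.43) with vehicle and from 4.97 to 8.49 (median 5.64) with GA, with GA 6 the highest of all 12 libraries. Its log2 difference was -0.08 (95% interval -0.40 to 0.24, exact permutation p = 0.597), on 305 to 660 reads per library, the fewest of the 8 genes.

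Across libraries, Hif1a RNA ran opposite to the RNA of Hif1an, the hydroxylase named for inhibiting it. Hif1an was tied as closely to other genes: its r was 0.761 with Epas1 and 0.989 with Atp5f1d, given as a description with no test. Over the 12 libraries Pearson's r was -0.756 (permutation p = 0.00504, 0.0353 adjusted over the 7 relations of Hif1a to the other genes) and Spearman's rho was -0.713 (permutation p = 0.0115, adjusted 0.0803). Without the 2 libraries farthest from the median of Hif1an, vehicle 5 and GA 6, r was -0.679. Within groups r was -0.636 over the vehicle libraries (exact permutation p = 0.192, n = 6) and -0.868 over the GA libraries (exact permutation p = 0.00278, n = 6). Vhl had an r of 0.591 with Hif1a (permutation p = 0.0432, adjusted 0.151) and a rho of 0.573 (permutation p = 0.0552, adjusted 0.193). Its r was 0.889 within GA (exact permutation p = 0.0167, n = 6) and -0.050 within vehicle (exact permutation p = 0.889, n = 6). Epas1 had an r of -0.410 with Hif1a (permutation p = 0.183, adjusted 0.426) and a rho of -0.448 (permutation p = 0.148, adjusted 0.346). Its r was -0.905 within GA (exact permutation p = 0.00278, n = 6) and 0.049 within vehicle (exact permutation p = 0.896, n = 6). Whether the groups differed in it was not tested. For Arnt, Egln1, Egln2 and Egln3 the r with Hif1a lay between -0.263 and 0.221, with adjusted permutation p of 0.598 to 0.849. Given as a description with no test, Epas1 and Egln1 had an r of 0.864 over the same 12 libraries, and Egln1 exceeded Epas1 by a nearly constant 1.09 ± 0.21 on the log2 scale (SD, n = 12).

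Levels of some tissue markers moved with each alpha subunit across the libraries. Each was set against the mean log2 level of 7 marker lists, with p-values adjusted over the 14 relations. Hif1a followed the basal epithelium markers, a list of 8: r was 0.725 (permutation p = 0.00881, adjusted 0.0411) and rho 0.706 (permutation p = 0.0132, adjusted 0.0922). The members of the list did not all move with it: the r of Hif1a was 0.931 with Krt14, 0.835 with Itga6 and 0.802 with Krt5, but -0.653 with Krt15, also a keratin of basal epithelium, and -0.388 with Dst. With the whole list r was 0.659 over the 7 libraries without Y-linked reads (permutation p = 0.107), 0.713 without the 2 libraries farthest from the median of the markers, 0.853 within vehicle (exact permutation p = 0.0972, n = 6) and 0.701 within GA (exact permutation p = 0.0750, n = 6). Of the 8 markers 6 were lower and 2 higher with GA, none called, their sum ran from 4534 to 9244 FPKM with vehicle and from 2975 to 11828 FPKM with GA, and none was at 0 in any library. With the basal epithelium score as a term, chosen after its values were seen, the log2 difference of Hif1a was -0.65 (95% interval -1.23 to -0.06, adjusted p = 0.999 by limma). With neutrophil markers, the r of Hif1a was 0.586 (permutation p = 0.0424, adjusted 0.149; rho 0.587, permutation p = 0.0496, adjusted 0.139) and it was 0.308 without vehicle 4 and 5. All 11 of 11 tested neutrophil markers were lower with GA (median log2 difference -0.87, none called). The neutrophil score was highest in vehicle 5 (4.73), vehicle 4 (3.93) and GA 2 (3.14), and from -0.16 to 1.12 in the rest. Without vehicle 4 or vehicle 5 the median was -0.71 or -0.62. The marker sum ran from 1102 to 2612 FPKM with vehicle and from 221 to 1846 FPKM with GA. Most of it was S100a8 and S100a9 (means of 663 and 1062 FPKM with vehicle). Retnlg was at 0 in at least 1 vehicle library and Clec4d in at least 1 GA library. With the neutrophil score as a term the log2 difference of Hif1a was -0.61 (95% interval -1.38 to 0.17, adjusted p = 0.999933 by limma).

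Epas1 followed skeletal muscle and endothelial markers instead. With the muscle list, of which Acta1 had the highest mean level, r was 0.825 (permutation p = 0.00112, adjusted 0.0157) and rho 0.818 (permutation p = 0.00185, adjusted 0.0259). It was 0.603 without vehicle 1 and vehicle 3, which are at the ends of the range, 0.960 within vehicle (exact permutation p = 0.00833, n = 6) and 0.556 within GA (exact permutation p = 0.224, n = 6). With the endothelial list, which holds Pecam1, Cdh5 and Tek, r was 0.766 (permutation p = 0.00400, adjusted 0.0280) and rho 0.664 (permutation p = 0.0223, adjusted 0.104), but r was 0.338 without vehicle 1 and vehicle 3, the libraries farthest from the median of the list. It was 0.818 within vehicle (exact permutation p = 0.0403, n = 6), 0.796 within GA, which holds neither of them (exact permutation p = 0.0694, n = 6), and 0.864 over the 9 libraries without high Lipf. Over the 7 libraries without Y-linked reads, r was 0.523 with the muscle list (permutation p = 0.218) and 0.034 with the endothelial list (permutation p = 0.941). On the log2 scale all 14 of 14 endothelial markers were higher with GA, none called (median 0.15), but this direction depended on vehicle 1: without it 4 were higher and 10 lower (median -0.11), and over the libraries without Y-linked reads 2 were higher and 12 lower (median -0.27). By mean FPKM, Pecam1 (11.2 with vehicle, 11.1 with GA) and Cdh5 (13.2 and 11.9) were not higher with GA. The list had sums of 27.8 to 123 FPKM with vehicle and 72.9 to 103 FPKM with GA, and none was at 0. Of the 13 muscle markers tested 10 were higher and 3 lower, none called. The part of these cell types in the differences of Hif1a and Epas1 beyond the terms above was not tested.

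**Figure D4:**
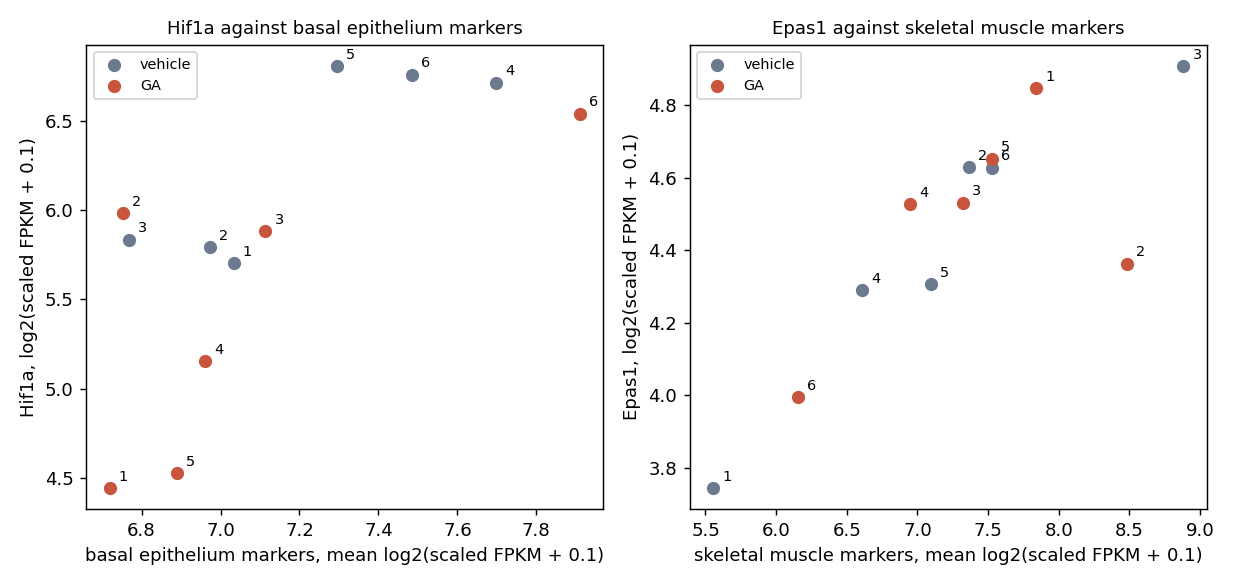
Left, Hif1a against the mean of the basal epithelium markers; right, Epas1 against the mean of the skeletal muscle markers, all axes in log2(scaled FPKM + 0.1); points are libraries with their replicate number. Over the 12 libraries r was 0.725 on the left and 0.825 on the right, where vehicle 1 and vehicle 3 mark the lowest and highest muscle level.

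The genes whose pattern over the 12 libraries was most like that of Hif1a, among 12154 genes averaging 1 FPKM or more, were Eya2 (r = 0.960), Pelo (0.939), Enah (0.931), Krt14 (0.931) and Serinc2 (0.930). Krt14, the keratin of basal epithelium, is also in the basal epithelium list, and Enah encodes an actin regulator. The lowest r with Hif1a were those of Fzd7 (-0.911), Ufsp1 (-0.909) and Paip2b (-0.903). For Epas1 the most alike were Cavin2 (0.967), which encodes a protein of caveolae, Mapk1ip1 (0.965), Mterf2 (0.965), Fsd1l (0.962) and Slc9a2 (0.961), and the lowest were Jmjd1c (-0.970), Faap24 (-0.968) and Atox1 (-0.937). These r are ranks within the same 12 libraries and carry no test.

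No HIF target gene was called between the groups. Of 18 tested targets of glycolysis and glucose uptake, 7 were higher and 11 lower with GA, none called, with a median log2 difference of -0.05 against 0.0042 over all 16847 genes, of which 8264 were lower. The smallest p among those higher were of Gpi1 (0.16), Gapdh (0.20) and Hk2 (0.12), and among those lower of Pgam1 (-0.28), Ldha (-0.15) and Slc16a3 (-0.74), given as log2 differences. Gapdh has many near-identical copies in the genome and was at only 23.3 ± 7.96 FPKM with vehicle (SD over 6 libraries) under unique mapping, so its value is uncertain. Ldha, the lactate dehydrogenase of the anaerobic end of glycolysis, ran from 248 to 308 FPKM (median 286) with vehicle and from 232 to 331 FPKM (median 239) with GA. Slc16a3, the lactate exporter MCT4, ran from 0.660 to 11.4 FPKM (median 3.36) with vehicle and from 0.472 to 11.7 FPKM (median 1.68) with GA. Its ranges overlapped almost fully, while the GA median was the lower.

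Of 20 other HIF targets, 6 were higher and 14 lower with GA, none called, with a median of -0.13. The 1 target with an unadjusted p below 0.05 was Ankrd37, an ankyrin repeat gene. It was at 1.28 FPKM with vehicle and 1.96 FPKM with GA (log2 difference 0.62, adjusted p = 0.999984 by limma), a direction opposite to that of Hif1a. Next among those higher were Bnip3, a mitophagy receptor (0.13), and Vegfa, the angiogenic growth factor (0.11). Among those lower, Mxi1, a MYC antagonist, was at -0.23 and Adm, which encodes adrenomedullin, at -0.58.

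Of the other genes around the hydroxylases and VHL, 0 were called in any list. The partners of VHL in its ligase, Elob, Eloc, Cul2 and Rbx1, had log2 differences of -0.07 to 0.14, 1 higher and 3 lower. Of 5 tested genes of the wider HIF family and its coactivators and CITED inhibitors 3 were higher and 2 lower, among them Ep300 (0.05) and Crebbp (0.02), the coactivators that FIH keeps from HIF, and Cited2 (-0.20) and Cited4 (-0.55), which compete for them; Hif3a did not pass the filter. Among 7 regulators of HIF-alpha or PHD stability 5 were higher and 2 lower, with the ligases for PHD enzymes Siah2 at 0.28 and Siah1a at -0.22, and Hsp90aa1, a chaperone of HIF-1alpha, at 0.25. Of 8 genes that feed Hif1a transcription or translation 3 were higher and 5 lower (median -0.06), and of 8 other oxygen-dependent dioxygenases 6 were higher and 2 lower (median 0.03).

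**Figure D5:**
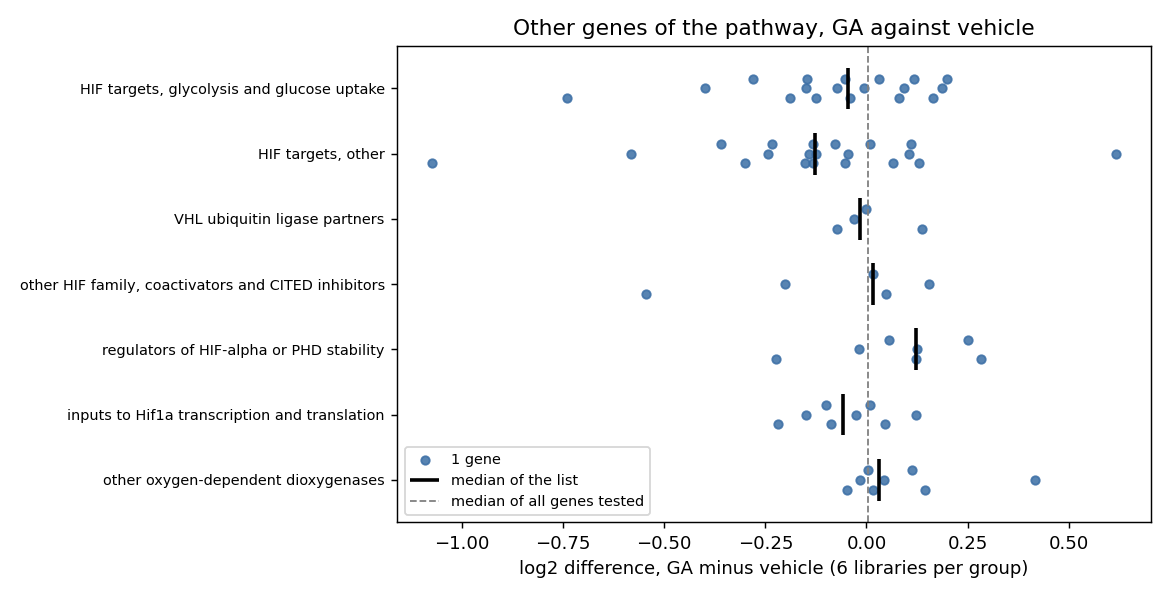
Log2 difference between GA and vehicle (horizontal axis, 6 libraries per group) for each gene of 7 lists; points are genes, black ticks the median of a list, and the dashed line the median of all genes tested. The medians run from -0.13 for the other HIF targets to 0.12 for regulators of stability, and no gene passed the call limit.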

How the data were processed

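Bulk RNA-seq of 12 mouse tongue libraries (6 vehicle, 6 GA) was used. RNA was prepared into SMARTER mRNA-seq libraries. According to the methods and the labels, the authors used FastQC for read quality, HISAT2 for alignment to mm10 and featureCounts for reads that mapped to 1 place; the deposited files hold FPKM, 1 file per library. How FPKM was computed, the annotation and the strand setting are not given in the sources used here. Each file has 55463 rows, and the 22965 rows without a name were dropped; 46 symbols stand on several rows.

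FPKM of named rows were brought to 1 scale by trimmed log ratios (30% of ratios and 5% of levels trimmed on each side; factors 0.914 to 1.08). Rows with a mean of at least 0.1 FPKM were tested on log2(scaled FPKM + 0.1) by limma 3.58.1 (R 4.3.3, trend), which understates fold changes of low genes, with Benjamini-Hochberg adjustment over 16847 genes; limma stands in for the count test of the methods because the values are FPKM. A call needed both an adjusted p below 0.1 and a log2 difference of 0.58 or more in size. Single values were tested by exact two-sided permutation over 924 assignments or 4096 sign patterns (scipy 1.17.1), and correlations over 12 libraries by 100000 resamples. A number of bases fitted for each library, 17.0 to 24.0, was left out of each GENCODE M21 exon length. Then 97.8% to 98.3% of low values (1 to 8 reads, tolerance 0.02) were whole reads, against 53.1% to 63.1% with none left out. This fit gave the depths and a limma-voom alternative. The fit was tested on simulated data. Genes and lists were chosen with earlier results of these data known, and the lists were written from general knowledge. Named were all 8 genes, any gene of the 3 lists of VHL partners, HIF family and stability regulators, the 3 targets of smallest p in each direction (1 of them is not reported here) and the genes most and least like Hif1a and Epas1. Alternatives varied pseudocount, filter, scaling, model, covariates and libraries.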

Additional observations from a re-analysis of the deposited data

Results flagged for a closer look

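Each group of 6 libraries was checked for 1 library far from the rest, by its gap to the nearest other library as a share of the group's range, against Dixon's critical value. Of 68 groups of values 6 passed (8.82%), where chance gives about 1 in 20. None was a value of the 8 genes. In GA 6 the glycolysis target score (mean log2 level 5.48, the other GA libraries at 4.76 to 4.91) stood apart with a share of 0.802, and so did its basal epithelium score (7.91, share 0.669). In GA 2 the von Ebner gland score (8.87, share 0.922) and the neutrophil score (3.14, share 0.716) were highest. In vehicle 1 the score of the wider HIF family was highest (2.72, share 0.715) and the endothelial score lowest (0.776, share 0.648).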

How the results depend on the processing

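No gene was called under 28 of 29 alternatives that kept the call limit; without vehicle 4, limma called 1 gene, Gm25290, which is lower with GA and rests on 0 to 5 reads per library. With unadjusted limits, 328 genes (p below 0.1 with the same fold limit) and 364 genes (p below 0.05) passed. Hif1a was lower with GA in all 29 alternatives, Arnt and Vhl too, and Hif1an higher. Hif1a had an unadjusted p below 0.05 in 19 of 29, and the adjusted p was above the limit in each. Differences near 0 turned sign. Epas1 was at -0.026 with the endothelial term and -0.053 over the libraries without Y-linked reads. Egln1 was at -0.0056 with median of ratios scaling, -0.083 with the endothelial, -0.057 with the muscle and -0.035 with the basal epithelium term, the last added after the data were seen. Egln2 was at 0.0018 with the neutrophil term, 0.018 with the sex term and 0.035 over the libraries without Y-linked reads, where Egln3 was at -0.14. In the order of levels, also added, Hif1a against Egln3 was 0.040 over the libraries without Y-linked reads, and Epas1 against Egln2 was 0.030 without those with high Lipf. The causes were not tested. The median of the other HIF targets was 0.050 with the neutrophil term and -0.13 in the main fit.

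With 1 library left out, log2 differences ran from -1.07 to -0.65 for Hif1a, -0.067 to 0.17 for Epas1, -0.15 to 0.12 for Egln1, -0.084 to 0.066 for Egln2, 0.11 to 0.36 for Egln3, -0.23 to -0.092 for Arnt, -0.17 to -0.020 for Vhl and 0.091 to 0.28 for Hif1an. Arnt was at -0.23 without vehicle 3 (95% interval -0.44 to -0.026, adjusted p = 0.852 by limma) and -0.092 without vehicle 1. The log2 ratio of Hif1a to Epas1 ran from -1.24 to -0.65, the genes called from 0 to 1, Hif1a against Egln3 from -0.11 to 0.16 and Epas1 against Egln2 from -0.051 to 0.036. The r of Epas1 with endothelial markers ran from 0.514 (without vehicle 1, permutation p = 0.107) to 0.861.

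Whether the replicate numbers pair the libraries is not given in the sources used here. The correlation of deviations between libraries of the same number ran from -0.372 to 0.0798, which cannot exclude a pairing. With the replicate block, Hif1a stayed at -0.85 (adjusted p = 0.999984 by limma), 0 genes were called, and 244 had an unadjusted p below 0.05; for the log2 ratio the exact sign-flip permutation p was 0.25.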

Other observations

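Among the other 6 genes, whose most similar genes were looked up after their values were seen, Hif1an followed genes of mitochondrial energy metabolism: the highest r over the 12 libraries were with Atp5f1d (0.989), a subunit of ATP synthase, Etfb (0.985), Fech (0.983), Cox5b (0.981), a subunit of cytochrome oxidase, and Slc25a11 (0.980). The lowest were with Actb (-0.965), Tpm4 (-0.962) and Jarid2 (-0.961). Egln3 was most like Ndufa4l2 (0.883), a known HIF target of the mitochondrion, which ran from 10.1 to 88.4 scaled FPKM. Egln1 shared Mterf2 with Epas1 (0.944), and its lowest r included that with Sprr1a (-0.903), a marker of differentiating epithelium. These are descriptions over 12 libraries that share tissue makeup, with no test.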
